A study of Mus musculus with 13 samples.

Results

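A set of 10 neuron-enriched microRNAs (miRNAs) was followed through Argonaute (AGO) CLIP libraries of mouse cortex after experimental stroke: mmu-miR-124-3p and mmu-miR-124-5p, mmu-miR-9-5p and mmu-miR-9-3p, mmu-miR-128-3p, mmu-miR-137-3p, mmu-miR-138-5p, mmu-miR-7a-5p, mmu-miR-153-3p and mmu-miR-218-5p, written below without the species prefix. They were picked by name, and all 10 were present among the 1705 miRNAs counted. In AGO CLIP, RNA is fixed by ultraviolet light to AGO, the protein that carries a miRNA to its target RNAs. The fragments that stay bound are sequenced, and 1 such fragment is a tag. Cortex came from wild-type C57BL6 mice aged 7 to 8 weeks. The ipsilateral group (5 libraries) was the hemisphere whose middle cerebral artery had been blocked by a suture for 35 min, taken after 3 h of recovery. The contralateral group (4 libraries) was the other hemisphere of mice operated in that way, and the sham group (4 libraries) was cortex of mice whose arteries were exposed but not blocked. All groups were anesthetized, and each set of replicates with one number came from its own day of surgery. Cortex holds many cell types, and no cells were sorted.

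A miRNA finds its targets mainly through its seed, bases 2 to 8 from its 5′ end, which pairs with the matching bases of a messenger RNA, often in the 3'UTR. miR-124 is the archetypal neuronal miRNA and lowers transcripts of non-neuronal cells. Both arms of the miR-9 hairpin are used, in neural progenitors and in neurons. miR-128 restrains neuronal excitability, miR-137 acts on synaptic vesicle genes, and miR-138 limits the size of dendritic spines. miR-7 is bound by the circular RNA Cdr1as, miR-153 acts on genes of vesicle release, and miR-218 is made from introns of the axon guidance genes Slit2 and Slit3.

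The mature sequences of 8 members are shown because the seed fixes which sites were looked for under the AGO peaks. They are from RefSeq (GRCm38.p6), written 5′ to 3′ with the seed in capitals. The sequences of miR-124-3p and miR-124-5p are not shown, and no sites were looked for with their seeds.
miR-9-5p: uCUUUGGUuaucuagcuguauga
miR-9-3p: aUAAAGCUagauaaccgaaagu
miR-128-3p: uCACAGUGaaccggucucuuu
miR-137-3p: uUAUUGCUuaagaauacgcguag
miR-138-5p: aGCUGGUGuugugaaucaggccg
miR-7a-5p: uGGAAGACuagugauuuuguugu
miR-153-3p: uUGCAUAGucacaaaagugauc
miR-218-5p: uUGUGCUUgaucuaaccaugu

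No member shown shares its seed with another. Among the other miRNAs of the table, miR-7b-5p has the seed of miR-7a-5p and miR-7002-3p that of miR-218-5p. Several members are made from more than one locus. miR-9-5p lies at chr3:88215613-88215635, chr7:79505279-79505301 and chr13:83738821-83738843, all on the plus strand, and tags of these copies cannot be told apart. miR-137-3p and miR-153-3p each have 1 locus, at chr3:118433901-118433923 and chr12:117250860-117250881.

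Depth was low and uneven. A library held between 3851 miRNA tags (ipsilateral replicate 5) and 61708 (contralateral replicate 1), and the median count of a miRNA was 1 to 24. Peak tags ranged from 3780 to 71027. Intronic and intergenic peaks took 50.4% to 60.4% of the peak tags in the 3 libraries of replicate 1 and 17.5% to 44.2% in the remaining ones. Neuronal, astrocyte and oligodendrocyte genes (Camk2a, Slc1a2 and Mbp among them) all carried exonic tags. Replicates are separate surgeries, and p-values measure the spread between them.

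miR-124-3p was by far the most abundant member and ranked 3 in the table, with 4707 of 408129 tags. It had 110, 114, 92.5, 161 and 156 tags per 10000 miRNA tags in ipsilateral replicates 1 to 5. Contralateral replicates 1, 2, 4 and 5 had 143, 77.9, 154 and 31.4, and sham replicates 1, 2, 3 and 5 had 108, 162, 99.2 and 108. Every library was far above 0, and the groups overlapped almost completely. The lowest library was contralateral replicate 5, where 46 tags gave a 95% Wilson interval of 23.6 to 41.9, which covers counting error only. That interval lies below the interval of every other library (next lowest bound 69.4).

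The other members followed at a distance. Mean levels over the 13 libraries were 23.7 ± 7.95 tags per 10000 for miR-153-3p, 16.7 ± 6.32 for miR-9-3p, 13.2 ± 2.49 for miR-9-5p, 13.1 ± 3.16 for miR-137-3p and 11.1 ± 4.60 for miR-138-5p (SD, n = 13). miR-7a-5p (5.65), miR-218-5p (4.58), miR-128-3p (2.68) and miR-124-5p (1.72) were lower still. In this order miR-124-3p exceeded miR-153-3p in 13 of 13 libraries and miR-153-3p exceeded miR-9-3p in 11. miR-9-5p exceeded miR-137-3p in only 7 of 13, and miR-128-3p exceeded miR-124-5p in 7, so neither pair is ordered beyond its spread. miR-9-5p was the steadiest member, with an SD of 0.188 times its mean.

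**Figure D1:**
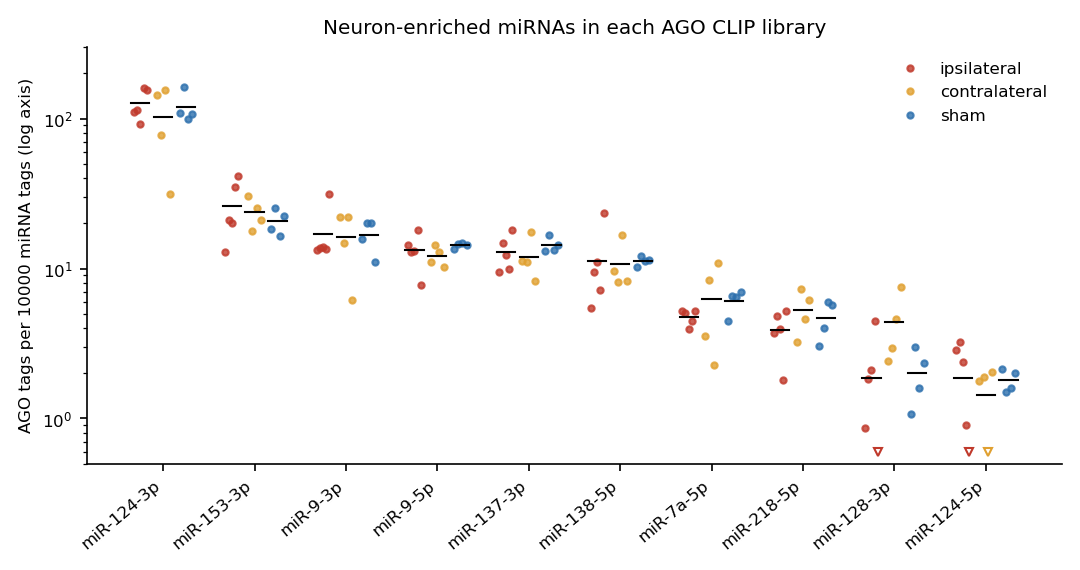
AGO tags per 10000 miRNA tags (log axis) of the 10 miRNAs, 1 point per library, with ipsilateral (red), contralateral (yellow) and sham (blue) libraries from left to right for each miRNA. Black lines are group means and open triangles are libraries with 0 tags, and for every miRNA the groups overlap.

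Not every named member stood clear of the table's floor. Of 22 miRNAs known from other tissues, such as the liver miRNA miR-122-5p and the muscle miRNA miR-1a-3p, 19 were in the table. They lay at 0.391 to 1.71 times the library median count, averaged over libraries. Because such miRNAs are not expected in cortex, levels in that range were not read as expression. miR-124-3p lay at 29.1 times the median, miR-153-3p at 6.02, miR-9-3p at 4.29, miR-137-3p at 3.27, miR-9-5p at 3.198 and miR-138-5p at 2.86. On this average these 6 exceeded every miRNA of the other tissues. The remaining 4 did not: miR-7a-5p was at 1.39, miR-218-5p at 1.13, miR-128-3p at 0.623 and miR-124-5p at 0.410. In their lowest libraries miR-9-3p (1.5) and miR-138-5p (1.46) fell inside the range of the other tissues. Their highest multiples, 12 and 9, were in ipsilateral replicate 5, where the median count was 1. miR-128-3p, usually among the abundant miRNAs of cortex, had 96 tags in all and exceeded its library's median in 1 of 13 libraries. Among 100 miRNAs outside the set that averaged at least 3 times the median, the levels of miR-23b-3p (Spearman rho 0.91), miR-101a-3p (0.88) and miR-26a-5p (0.87) followed those of miR-124-3p most closely over the 13 libraries, followed by miR-195a-5p (0.76) and miR-29a-3p (0.76). For miR-9-5p the closest was miR-7020-3p (0.53), ahead of miR-669c-3p (0.48), miR-30d-5p (0.40), miR-877-3p (0.40) and miR-7011-3p (0.38). The values given are the highest of 100 correlations for each miRNA, and among so many some are high without any relation. The levels correlated were multiples of the library median, so both miRNAs of a pair share that divisor. These are descriptions over libraries that share their depth and their day of surgery, and they were not tested.

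Markers of other cell types lay close to the same range. Of 16 such miRNAs, 11 were in the table, at 0.388 to 1.90 times the median, with miR-155-5p (1.90) and miR-142a-5p (1.87) above the highest miRNA of other tissues, among them the myeloid miR-223-3p and miR-155-5p and the blood miRNA miR-451a. Every miRNA counted had at least 50 tags in all, so none of the 11 could be at 0 in total. Their summed level was 45.8 to 57.1 tags per 10000 in ipsilateral, 45.1 to 69.7 in contralateral and 50.2 to 58.5 in sham libraries, so the groups overlapped.

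Both arms of a hairpin can be compared within a library, without any scaling. miR-124-3p had 4707 tags against 83 for its partner miR-124-5p, a pooled ratio of 56.7, and it was the higher arm in 13 of 13 libraries. The partner arm was in the floor range. For miR-9 both arms were on average above the floor and nearly level: 546 tags on miR-9-5p and 666 on miR-9-3p, with miR-9-5p higher in 4 of 13 libraries. The log2 arm ratio of miR-124 averaged 5.55 ± 0.64 in ipsilateral (SD, n = 5), 5.65 ± 1.73 in contralateral and 5.81 ± 0.48 in sham libraries (n = 4 each). That of miR-9 averaged -0.27 ± 0.82 in ipsilateral, -0.28 ± 0.75 in contralateral and -0.18 ± 0.38 in sham libraries. No arm ratio differed between groups by the exact permutation test (two-sided p from 0.437 to 1, each adjusted p 1 over 6 tests, smallest attainable p 0.0159 or 0.0286).

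A paralog stood higher than the named member in the case of miR-7. miR-7b-5p, which has the same seed as miR-7a-5p, was at 3.92 times the median with 580 tags, against 222 for miR-7a-5p. The partner arm miR-137-5p was at 2.02 times the median, below miR-137-3p at 3.27. Of 14 other arms and paralogs looked up, 9 were in the table, and the remaining 7 of these were at 0.469 to 1.40 times the median.

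**Figure D2:**
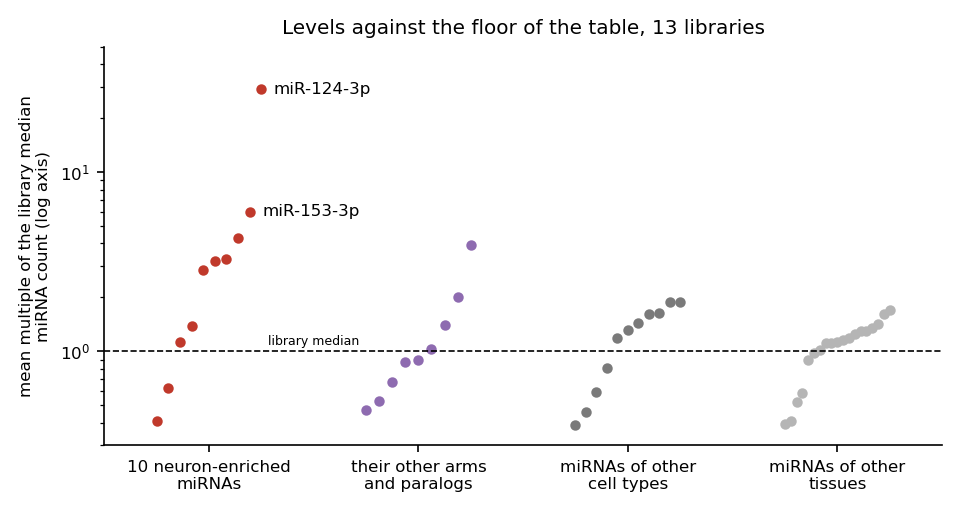
Mean multiple of the library median miRNA count over 13 libraries (log axis), 1 point per miRNA, for the 10 neuron-enriched miRNAs, their other arms and paralogs, and miRNAs of other cell types and other tissues. Of the neuron-enriched miRNAs, 6 lie above all miRNAs of other tissues, of which the highest is at 1.71.

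The comparison of ipsilateral with sham cortex asks whether AGO held different amounts of these miRNAs after ischemia. No member passed the test. miR-124-3p averaged 127 ± 30.0 tags per 10000 in ipsilateral (SD, n = 5) and 119 ± 28.7 in sham libraries (n = 4), a log2 fold change of 0.05 (SE 0.51). miR-9-5p averaged 13.2 ± 3.66 and 14.3 ± 0.542 (-0.07, SE 0.23). miR-153-3p had 12.9, 21.0, 19.97, 35.0 and 41.5 in ipsilateral replicates 1 to 5 and 18.4, 25.1, 16.5 and 22.4 in sham replicates 1, 2, 3 and 5 (0.17, SE 0.32). Its highest values, in ipsilateral replicates 4 and 5, rest on 39 and 16 tags, and the ipsilateral libraries spread on both sides of the sham range. miR-9-3p (-0.17), miR-137-3p (-0.24), miR-138-5p (-0.29), miR-7a-5p (-0.34), miR-218-5p (-0.15) and miR-128-3p (-0.10) had estimates below 0, with SEs of 0.24 to 0.46. By edgeR's quasi-likelihood test 0 of 9 tested members passed an adjusted p of 0.05, against 0 of all 1427 miRNAs tested (0%), and each member's adjusted p was 0.999. miR-124-5p had too few tags to be tested. At an unadjusted p under 0.05 there were 0 members and 35 miRNAs (2.45%), and DESeq2 called 0 (0%), with 13 (0.911%) at an unadjusted p under 0.05. The median log2 fold change of the members was -0.15, against -0.01 over all miRNAs tested. A changed number of neurons and a changed amount of miRNA on AGO per neuron could not be told apart in this bulk tissue.

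Against contralateral cortex, which sets the ischemic hemisphere against the other one, the picture was much the same. miR-124-3p averaged 127 ± 30.0 in ipsilateral and 102 ± 57.6 tags per 10000 in contralateral libraries (log2 fold change 0.27, SE 0.52). The member farthest from 0 was miR-128-3p, with 0.863, 1.85, 2.10, 4.49 and 0 tags per 10000 in ipsilateral replicates 1 to 5. The values in contralateral replicates 1, 2, 4 and 5 were 2.43, 2.97, 4.57 and 7.52, and sham replicates 1, 2, 3 and 5 had 1.07, 3.02, 1.61 and 2.34. The contralateral libraries lay higher, but each group overlapped the others, and the 0 in ipsilateral replicate 5 allows up to 7.79. The log2 fold change was -0.96 (SE 0.42) by edgeR, with an unadjusted p of 0.0296 and an adjusted p of 0.999, and the member lay in the floor range. It was 1 of 9 members at an unadjusted p under 0.05, against 52 of 1427 miRNAs (3.64%), and DESeq2 had 29 (2.03%) and called 0. No member or other miRNA was called (0%). The other members had log2 fold changes of 0.16 for miR-9-5p, -0.19 for miR-9-3p, 0.05 for miR-137-3p, -0.14 for miR-138-5p, -0.34 for miR-7a-5p, -0.05 for miR-153-3p and -0.35 for miR-218-5p (SE 0.24 to 0.32).

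Contralateral against sham cortex compares 2 tissues that were not ischemic. miR-124-3p had a log2 fold change of -0.22 (SE 0.54) and miR-128-3p 0.86 (SE 0.41, unadjusted p = 0.0408, edgeR adjusted p = 0.999). No miRNA was called (0%), and 43 of 1427 (3.01%) were at an unadjusted p under 0.05, with 20 (1.40%) by DESeq2, which called 0. The comparisons share their groups, so the opposite estimates for miR-128-3p rest on the same contralateral libraries. In no comparison did the libraries of the 2 groups separate without overlap for any of the 9 members. Over all miRNAs, 0.491% separated with ipsilateral higher than sham and 0.491% with ipsilateral lower, 0.491% and 0.561% in the same directions against contralateral cortex, and 0.631% and 0.911% with contralateral higher and lower than sham.

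The target side of AGO gave a second readout, though the members were chosen with earlier results of these data known. Each AGO peak is an 80-base stretch of RNA under a cluster of tags. Transcript sequence was read under 7462 3'UTR peaks and 3783 peaks in coding sequence (CDS) on the strand of the named gene only. It was searched for 2 motifs per seed, the complement of bases 2 to 8 and the complement of bases 2 to 7 followed by A. These are ACCAAAG and CCAAAGA for miR-9-5p, AGCTTTA and GCTTTAA for miR-9-3p, CACTGTG and ACTGTGA for miR-128-3p, and AGCAATA and GCAATAA for miR-137-3p. For miR-138-5p they are CACCAGC and ACCAGCA, for miR-7a-5p GTCTTCC and TCTTCCA, for miR-153-3p CTATGCA and TATGCAA, and for miR-218-5p AAGCACA and AGCACAA. The motifs of one seed overlap where both are present, and this was counted as 1 match.

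Matches for miR-9-5p piled up at the centres of AGO peaks, most of all in coding sequence. Within 30 bases of the centre of 3240 non-overlapping CDS peaks there were 28.3 matches per 1000 peaks in each 20-base bin, against 6.79 in bins 90 to 210 bases away, a ratio of 4.17. In 5274 3'UTR peaks the values were 7.02 and 3.30, a ratio of 2.12. The CDS ratios of the other seeds were 2.04 for miR-128-3p, 1.68 for miR-137-3p, 1.51 for miR-153-3p, 1.34 for miR-218-5p, 1.33 for miR-138-5p, 1.08 for miR-9-3p and 1.06 for miR-7a-5p. In 3'UTR peaks they were 1.97 for miR-137-3p, 1.78 for miR-9-3p, 1.61 for miR-153-3p, 1.50 for miR-128-3p, 1.42 for miR-218-5p, 1.06 for miR-138-5p and 0.807 for miR-7a-5p. The order of these ratios was not that of the miRNAs' own levels: miR-153-3p was more abundant on AGO than either miR-9 arm, and miR-128-3p was in the floor range.

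**Figure D3:**
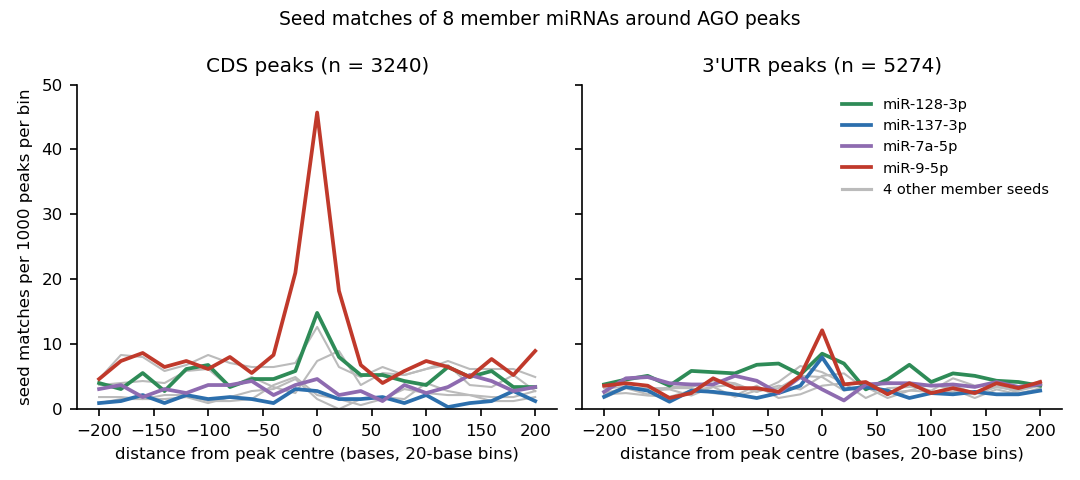
Seed matches of 8 member miRNAs per 1000 AGO peaks in 20-base bins around the peak centre, for CDS peaks (left) and 3'UTR peaks (right). The miR-9-5p line rises to 45.7 at the centre of CDS peaks and to 12.1 at the centre of 3'UTR peaks, and the miR-7a-5p line has no central rise.

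Of all CDS peaks read, 303 (8.01%) held a miR-9-5p match, in 261 genes, which ranked 1 of 83 seed families searched. The seed of miR-124-3p, the most abundant member, was not among these families. The next families were close, with 301 peaks (7.96%) for the miR-1903 seed (GAAGAAG or AAGAAGA) and 268 (7.08%) for the miR-6946-3p seed (AGAAGAA or GAAGAAA). In 3'UTR peaks 174 of 7462 (2.33%) did, which ranked 16. Ranked by peaks with the motif within 20 bases of the centre over the number scaled from the flanks, CCAAAGA ranked 1 and ACCAAAG 3 of 491 heptamers in CDS peaks. They ranked 12 and 4 of 1420 in 3'UTR peaks. Only heptamers in at least 25 peak centres were ranked, with 3 added to the flank value. For the 2-to-7 motif of miR-128-3p, ACTGTGA, the rank in CDS peaks was 12, and for GCAATAA of miR-137-3p the rank in 3'UTR peaks was 24.

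The miR-9-5p matches in coding sequence did not favour a reading frame compared with their surroundings. The CCAAAG core began at codon position 2 in 54.8% of 250 matches near CDS peak centres and in 59.7% of 248 matches away from them. The base just before a full ACCAAAG match was T in 37.3% of central CDS matches (57 matches), against 20.3% of those away (26), and in 41.4% of central 3'UTR matches (29), against 27.4% of those away (31). The base that would extend the pairing to position 9 of miR-9-5p, an A, stood there in 31.4% of central and 29.7% of distant CDS matches. These shares are descriptions and were not tested.

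The most covered CDS peaks with a miR-9-5p match show what such sites look like, with the match in capitals. They are 30-base stretches of the mm10 build, read on the strand given, and these genes were picked after their values had been seen.
Map2 (chr1:66380701-66380730, plus strand): cagggcacctattcagatACCAAAGAgaac
Atp2b2 (chr6:113817270-113817299, minus strand): tgggcaaaacttcatacctCCAAAGAaacc
Lnpep (chr17:17578972-17579001, minus strand): ctgcctagatgtacctttACCAAAGAaggc
Ttc3 (chr16:94462582-94462611, plus strand): tgctggaccatcagctagaACCAAAGgcca
Kcnc1 (chr7:46428113-46428142, plus strand): catggctaagcagaaactACCAAAGAaaaa

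Map2 encodes a microtubule protein of dendrites, and its peak held 130 tags, 29 in ipsilateral, 55 in contralateral and 46 in sham libraries. Atp2b2 encodes a calcium pump of the plasma membrane (97 tags), Lnpep an aminopeptidase (74), Ttc3 a ubiquitin ligase (66) and Kcnc1 a voltage-gated potassium channel (57). Together, CDS peaks with a miR-9-5p match took 9.04 ± 1.03% of CDS tags in ipsilateral (SD, n = 5), 9.30 ± 1.86% in contralateral (n = 4) and 9.13 ± 0.834% in sham libraries (n = 4). Single libraries ran from 8.12% to 10.6% in ipsilateral, from 6.78% to 11.03% in contralateral and from 8.27% to 10.2% in sham. The share was thus close to level across groups, with log2 fold changes of -0.04 (SE 0.15) against sham and -0.10 (SE 0.15) against contralateral cortex and edgeR adjusted p of 0.965 and 0.939. No CDS family was called in any comparison (0%) by edgeR or DESeq2. At an unadjusted p under 0.05 there were 4 of 83 families (4.82%) in ipsilateral against sham cortex, 6 (7.23%) against contralateral cortex and 2 (2.41%) in contralateral against sham cortex. Members among them were miR-9-3p at 0.41 (SE 0.19, adjusted p = 0.965) and miR-137-3p at -0.45 (SE 0.22, adjusted p = 0.965) against sham, and miR-9-3p at 0.56 (SE 0.20, adjusted p = 0.407) and miR-128-3p at -0.32 (SE 0.15, adjusted p = 0.545) against contralateral cortex. The miR-9-3p sum covers 26 CDS peaks.

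Tags in 3'UTR peaks with a seed match were then compared between groups as shares of all 3'UTR tags. In ipsilateral against sham cortex 0 of 8 member seeds were called by edgeR, against 1 of 83 families (1.20%, also by DESeq2), and 2 members and 7 families (8.43%) were at an unadjusted p under 0.05. That 1 family, miR-29b-3p, is not a member. All 8 member estimates lay below 0, with a median of -0.19 against -0.05 over all families, of which 61.4% were below 0. With all peak tags as the library size 7 of the 8 were above 0 (0.021 to 0.35, SE 0.35 to 0.40). A change of library size shifts all families nearly alike, so this count says nothing particular to the members. The sign thus depends on the scaling, and with these SEs no direction is given. The estimates were -0.45 (SE 0.18) for the miR-7 seed, -0.29 (SE 0.13) for miR-9-5p, -0.21 for miR-138-5p, -0.20 for miR-128-3p, -0.19 for miR-153-3p, -0.14 for miR-137-3p, -0.05 for miR-9-3p and -0.01 for miR-218-5p.

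The miR-7 seed came closest to a call. Its 3'UTR peaks took 0.806%, 1.29%, 1.19%, 1.10% and 0.717% of 3'UTR tags in ipsilateral replicates 1 to 5. Contralateral replicates 1, 2, 4 and 5 had 1.10%, 1.57%, 1.94% and 1.01%, and sham replicates 1, 2, 3 and 5 had 0.998%, 1.81%, 1.73% and 1.42%. Within each surgery day the ipsilateral library was the lowest, yet the groups overlapped, with sham replicate 1 inside the ipsilateral range. The edgeR adjusted p against sham was 0.422. Matches of bases 2 to 8 followed by A leave out the Ids peak described next. Counting only these, the estimate was 0.25 (SE 0.54, edgeR adjusted p = 0.942). Its sign differed from that of the main estimate, but the SE was too wide to give a direction. With replicate number as a block, which pairs libraries of the same surgery day, the log2 fold change was -0.54 (SE 0.11) and the edgeR adjusted p 0.00194. In that fit 4 of 83 families were called (4.82%): miR-7a-5p, miR-29b-3p, miR-691 and miR-7116-5p. The miR-7116-5p motif TGTCTTC overlaps the miR-7 motif and also lies in the Ids peak, so both families count that peak. In the same comparison without the block 0 members were called. For the miR-7 seed the block gave -0.42 (adjusted p = 0.0600) against contralateral cortex, where the unblocked value was -0.35 (SE 0.18, adjusted p = 0.474).

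The blocked call was lost without a single peak. Of 1757 tags in 80 miR-7 site peaks, 614 (34.9%) lay in 1 peak of the 3'UTR of Ids, which encodes iduronate 2-sulfatase, a lysosomal enzyme. For the other member seeds the most covered peak held 4.21% to 17.2% of the tags. The Ids match stands on the minus strand of the mm10 X chromosome, and the next most covered, in the cytoskeletal linker gene Plec, on that of chromosome 15.
Ids (chrX:70344169-70344198): ttccttaaagaatccatgtGTCTTCCtaaa
Plec (chr15:76172047-76172076): ctttttaacatttaaaggtGTCTTCCtccc

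The Ids peak had 23.0, 45.3, 36.1, 34.8 and 14.3 tags per 10000 3'UTR tags in ipsilateral replicates 1 to 5. Contralateral replicates 1, 2, 4 and 5 had 34.4, 49.4, 106 and 24.8, and sham replicates 1, 2, 3 and 5 had 37.4, 67.9, 74.6 and 56.5. On each surgery day the ipsilateral value was the lowest. Without its most covered peak in each family, the estimate for the miR-7 seed against sham was -0.25 (SE 0.17, edgeR adjusted p = 0.803), and -0.30 (SE 0.12, adjusted p = 0.204) with the block. This alternative was chosen after seeing the data.

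**Figure D4:**
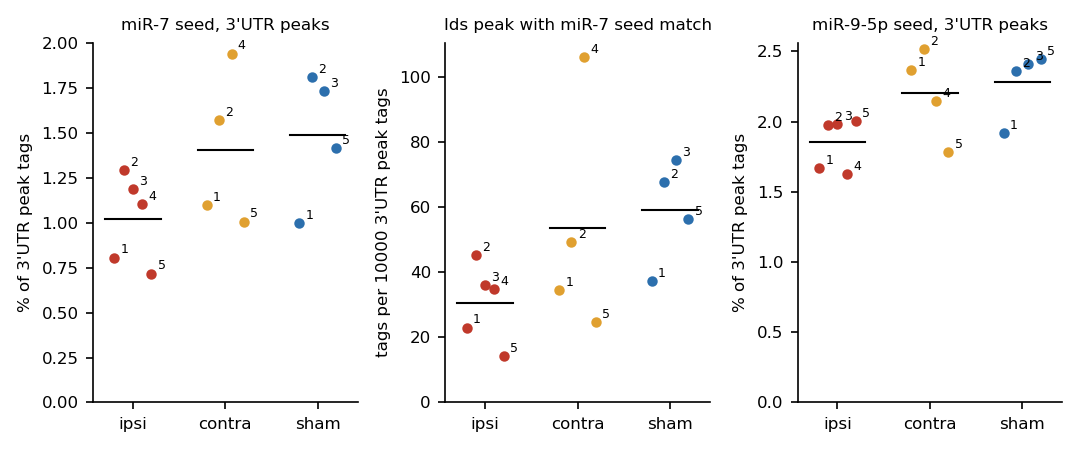
Left, share of 3'UTR peak tags in peaks with a miR-7 seed match. Middle, tags in the Ids peak per 10000 3'UTR peak tags. Right, share in peaks with a miR-9-5p seed match. Points are libraries numbered by replicate, ipsilateral, contralateral and sham from left to right, and lines are group means. The miR-7 shares average 1.02%, 1.40% and 1.49% and the Ids peak 30.7, 53.7 and 59.1 in that order.

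For the miR-9-5p seed the ipsilateral libraries had 1.67%, 1.97%, 1.98%, 1.62% and 2.01% of 3'UTR tags (replicates 1 to 5). Contralateral libraries had 2.37%, 2.52%, 2.15% and 1.78% (replicates 1, 2, 4 and 5) and sham libraries 1.92%, 2.36%, 2.41% and 2.45% (replicates 1, 2, 3 and 5). Sham replicate 1 and contralateral replicate 5 lay inside the ipsilateral range, and the other sham and contralateral libraries lay above it. The log2 fold changes were -0.29 (edgeR adjusted p = 0.441) against sham and -0.26 (SE 0.13, adjusted p = 0.474) against contralateral cortex, and with the block -0.29 (adjusted p = 0.111) and -0.33 (adjusted p = 0.0676, 1.20% of families called). No member was called in ipsilateral against contralateral cortex, against 1 of 83 families (1.20%), nor in contralateral against sham cortex (0%, with 0 families at an unadjusted p under 0.05; DESeq2 also called 0). Of all families, 8 (9.64%) were at an unadjusted p under 0.05 in ipsilateral against contralateral cortex. In both comparisons with the ipsilateral group no member seed's libraries separated without overlap, while 3.61% and 4.82% of families separated with ipsilateral lower.

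The most covered 3'UTR matches of the other member seeds lay in genes of varied function. Atp1b1, the beta subunit of the sodium pump, held matches of 3 members: miR-9-5p (126 tags), miR-218-5p (113) and miR-137-3p (77). The astrocyte glutamate transporter gene Slc1a2 held a miR-218-5p match (106 tags), Map1b, a microtubule protein gene, one for miR-9-5p (117), and Camk2n1, an inhibitor of the kinase CaMKII, one for miR-138-5p (260). Adam23 and Bsn (103 tags), genes of synaptic proteins, held matches of miR-153-3p, and Ank2, an ankyrin gene, one of miR-128-3p (147), followed by Lrrc58 (121). The most covered matches of miR-9-3p were in Sparcl1 (127), which encodes a secreted matrix protein, and Tsc22d4 (49). Mib1, which encodes a ubiquitin ligase known to be a miR-137 target, held the most covered miR-137-3p match (100 tags). These are shown next on the strand of their gene, plus for Slc1a2, Camk2n1 and Adam23 and minus for Atp1b1, Map1b and Ank2.
miR-9-5p in Atp1b1 (chr1:164437301-164437330): gtgtaatgtatgaaataaaACCAAAGtcac
miR-218-5p in Atp1b1 (chr1:164438260-164438289): aaattaagagctgatcacAAGCACAAatct
miR-137-3p in Atp1b1 (chr1:164438103-164438132): gaatgtaaatttaaagtgtAGCAATAgcaa
miR-218-5p in Slc1a2 (chr2:102782634-102782663): gaaagtgtttgttatattaAAGCACAtgaa
miR-9-5p in Map1b (chr13:99424888-99424917): ccggttaactgaagcaaatACCAAAGcagg
miR-138-5p in Camk2n1 (chr4:138458071-138458100): tctgtatgttgcaccttgaACCAGCAcaca
miR-153-3p in Adam23 (chr1:63595800-63595829): tttttttttttttttttaCTATGCAAagat
miR-128-3p in Ank2 (chr3:126921779-126921808): tgttatcaaaaacttgaatACTGTGAgaag

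The Adam23 peak had 2.56, 7.19, 10.7, 0 and 0 tags per 10000 3'UTR tags in ipsilateral replicates 1 to 5, 8.07, 16.5, 0 and 1.55 in contralateral replicates 1, 2, 4 and 5, and 10.1, 23.7, 6.94 and 19.6 in sham replicates 1, 2, 3 and 5. It averaged 4.09 ± 4.73 in ipsilateral (SD, n = 5), 6.52 ± 7.50 in contralateral and 15.1 ± 7.87 in sham libraries (n = 4 each), and the groups overlapped. The Atp1b1 peak with the miR-218-5p match averaged 13.001 ± 11.5 in ipsilateral, 9.58 ± 2.99 in contralateral and 5.14 ± 0.997 in sham libraries. Its ipsilateral mean leans on replicate 5, at 33.4 from 7 tags, where the other ipsilateral libraries had 6.64 to 8.70. Contralateral libraries had 6.78 to 13.5. The sham libraries, at 4.09 to 6.47 from 3 to 9 tags each, all lay below the rest, though narrowly. Pooled over tags, which weights deep libraries more, the order of ipsilateral and contralateral turned, with 8.60 in ipsilateral, 10.5 in contralateral and 5.00 in sham libraries. Single peaks were not tested.

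AGO peaks were spread over the locus of the circular RNA Cdr1as, the best known partner of miR-7. The Cdr1as exon (chrX:61183248-61186174, plus strand) holds 130 matches of the miR-7 seed on the plus strand and 0 on the minus strand, where the gene Cdr1 lies. The deposited table names these peaks Cdr1 or gives no gene, and it holds no usable strand for them, so tags of Cdr1as and of Cdr1 could not be told apart. In all, 16 peaks lay inside the exon, and they covered 40.1% of its bases and 51 of the 130 plus-strand matches (39.2%). The share of matches was no higher than the share of bases, so the peaks did not favour the matches. Without the peaks that overlap a more covered peak, 12 remained with 31 to 389 tags each. Every one spanned 1 to 5 miR-7 matches of the plus strand. With 130 matches in 2927 bases such overlap is likely wherever a peak lies, so it does not tie these peaks to miR-7. The only other member seed with matches on the plus strand was miR-9-5p, with 2, neither inside a peak. The most covered peak, with 389 tags, spans these 4 matches, each a pairing of bases 2 to 8 followed by A.
chrX:61183511-61183540: ttccagaaaaaaatccacGTCTTCCAgaaa
chrX:61183530-61183559: tcttccagaaaaattcatGTCTTCCAggaa
chrX:61183549-61183578: tcttccaggaaaatccatGTCTTCCAgaaa
chrX:61183568-61183597: tcttccagaaaaatccaaGTCTTCCAgaag

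The 4 stretches overlap and repeat nearly the same bases. Tags in the 12 peaks came to 61.4, 93.1, 88.5, 40.1 and 3.48 per 10000 exonic tags in ipsilateral replicates 1 to 5. For contralateral replicates 1, 2, 4 and 5 it was 32.4, 87.6, 65.7 and 43.9, and sham replicates 1, 2, 3 and 5 had 74.1, 105, 73.6 and 65.0. Ipsilateral replicate 5 stood far below all others, with 1 tag among 2871, while the ipsilateral and sham ranges overlapped elsewhere. Tested as the gene sum named Cdr1, the log2 fold change in ipsilateral against sham cortex was -0.39 (SE 0.42, edgeR adjusted p = 0.798). The long noncoding RNA 1700020I14Rik (Oip5os1, Cyrano), whose extended site directs decay of miR-7, had 8 non-overlapping peaks. Only 1 of them, with 38 tags, held a miR-7 match. The bases before that match mostly do not pair with the rest of miR-7a-5p, so it is not the extended site. The match is shown here from the plus strand.
1700020I14Rik peak (chr2:119599948-119600027): tcaggttttttttttaatGTCTTCCAattt

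**Figure D5:**
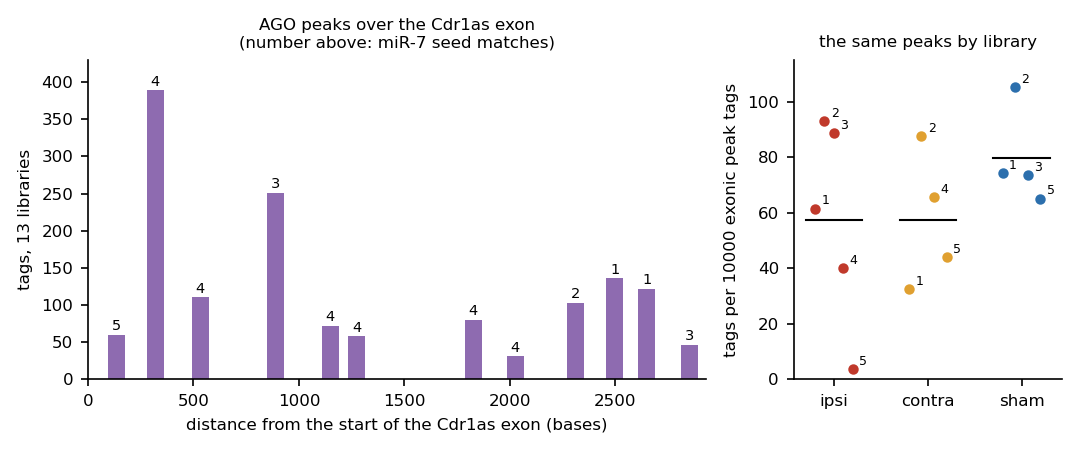
Left, AGO tags of all 13 libraries in 12 non-overlapping peaks along the Cdr1as exon, with the number of miR-7 seed matches above each bar. Right, tags in these peaks per 10000 exonic peak tags by library, numbered by replicate, with group means as lines. The bars reach 389 tags and do not follow the number of matches, and ipsilateral replicate 5 has 3.48.

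Known targets of the members were drawn from a list of 48 genes. Of these 31 had exonic tags and 13 had enough to be tested. The list includes Cdr1, the symbol the table gives to most peaks over the Cdr1as exon, and Oip5os1. None was called in any of the 3 comparisons, against 1 of 449 genes (0.223%) in ipsilateral against sham cortex and 0 (0%) in ipsilateral against contralateral and in contralateral against sham cortex. At an unadjusted p under 0.05 there were 41 (9.13%), 51 (11.4%) and 7 (1.56%) genes in these 3 comparisons, and DESeq2 called 0, 4 (0.891%) and 0 genes. The median log2 fold change of the tested targets was 0.17 against sham and 0.23 against contralateral cortex, with 0.01 and -0.01 over all genes. Above 0 were 10 and 9 of the 13, against 50.3% and 49.7% of all genes. Because there is no separate measure of RNA level, a changed transcript level and changed AGO binding could not be told apart.

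Snap25, which encodes a synaptic vesicle fusion protein and is a listed target of miR-128 and miR-153, was the target farthest from 0 among those tested. It had 22.2, 75.6, 99.5, 58.2 and 38.3 tags per 10000 exonic tags in ipsilateral replicates 1 to 5. Contralateral replicates 1, 2, 4 and 5 had 21.0, 46.9, 23.6 and 30.8, and sham replicates 1, 2, 3 and 5 had 21.7, 34.4, 23.8 and 24.7. Ipsilateral replicates 2 to 5 lay above every sham library, ipsilateral replicate 1 lay among them, and contralateral replicate 2 lay above ipsilateral replicate 5. The log2 fold change was 1.21 (SE 0.36, edgeR adjusted p = 0.2499) against sham and 0.97 (SE 0.36, adjusted p = 0.311) against contralateral cortex. Without ipsilateral replicate 1 it passed in both, at 1.45 (adjusted p = 0.0102) and 1.21 (adjusted p = 0.0218). Of 15 non-overlapping Snap25 peaks read, 1 held a miR-128-3p match (41 of 837 tags) and 1 a miR-153-3p match (79 tags).

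The remaining tested targets had estimates of either sign. In ipsilateral against sham cortex the log2 fold change was -0.27 (SE 0.24) for Map1b, a miR-9 target, -0.22 for Mib1 and 0.04 for Gria2, a glutamate receptor gene listed for miR-218. Of the genes of vesicle release listed for miR-137, Cplx1 had 0.54, Nsf 0.17 and Syt1 0.16. Of 6 host genes of the hairpins, only Arpp21, which carries a miR-128 hairpin and is also a listed miR-128 target, was tested (0.71, SE 0.47, edgeR adjusted p = 0.640). Over 30 pairs of a listed gene and its miRNA's seed with a peak to read, 14 had the seed match in a peak, 1 peak in each case. In all 258 peaks were read, with a peak counted once for each pair. For Cdr1 with miR-7 no match was possible, since the minus strand read there holds 0 matches. Over all peaks, a match of a single member seed lay in 1.07% to 2.56% of 3'UTR peaks and in 0.687% to 8.01% of CDS peaks. These counts were not tested. Where the miRNA hairpins themselves lay under a peak, tags were few: 41 at Mir153, 15 at Mir124a-3 and 10 at Mir137.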

How the data were processed

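The authors deposited raw counts in 2 tables, 1 by mature miRNA and 1 by AGO peak. Per the labels' protocols, AGO complexes of high and low molecular weight were pooled and fragments cloned by bromodeoxyuridine capture. The submitters' processing notes name Novoalign and mm10, without an aligner version. The sources used here do not give the peak caller or say whether duplicates were collapsed, so tags may not be independent molecules. Every miRNA had at least 50 tags in all. One peak without a position was left out.

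The members and all lists were chosen with earlier results of these data known. The genes named are the members, their other arms, a fixed list of known targets and the most covered peaks; some listed targets are not reported here. Levels are tags per 10000 miRNA tags and multiples of the library median count. Tests were two-sided and used edgeR 4.0.16 (quasi-likelihood, all 13 libraries, no block, Benjamini-Hochberg adjustment over all features of a table, threshold 0.05) under R 4.3.3, with TMM factors and filterByExpr for miRNAs. Families and genes used the 3'UTR, CDS or exonic peak tags as library size. Arm ratios (pseudocount 1) were compared by exact permutation tests in SciPy 1.17.1. Alternatives were DESeq2 1.42.0, other library sizes, filters and site definitions, the replicate block and leaving out each library. Those outside replicate 1, without overlapping peaks, in CDS peaks and without the most covered peak were chosen after seeing the data. Scripts were tested on simulated data.

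Sequence under peaks came from GENCODE release M21 (GRCm38, the assembly of mm10), with deposited intervals read as starting from 0, for 11730 peaks with at least 50 transcript bases. Strand was that of the named gene, since the letter in peak names matched it in only 48.8% of 11691 peaks. Of 110 miRNAs that were members or averaged at least 3 times the median, 88 had a RefSeq sequence, in 83 seed families. In all, 10.6% of peaks overlapped a more covered peak, so sums can count a tag more than once.

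Replicate numbers pair libraries, because the series text ties each set of replicates to its own surgery day. Deviations of same-numbered libraries from their group means correlated over miRNAs at -0.06 to 0.24 (median 0.09, 11 pairs), those of differently numbered ones at -0.21 to 0.18 (median -0.04, 45 pairs).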

Additional observations from a re-analysis of the deposited data

Results flagged for a closer look

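In 57 sets of 4 or 5 libraries of 1 group, 8 held a library apart from the rest of its group by Dixon's test, which chance alone gives in about 1 of 20. In miRNA tags per 10000, sham replicate 2 stood high for miR-124-3p (162, the others 99.2 to 108), ipsilateral replicate 5 for miR-9-3p (31.2, from 12 tags, the others 13.2 to 13.9) and contralateral replicate 4 for miR-138-5p (16.8, the others 8.11 to 9.56). Contralateral replicate 4 stood low for miR-124-5p (0, the others 1.78 to 2.05). At the depth of that library a 0 allows up to 2.29, which is above the others.

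In shares of 3'UTR tags, sham replicate 1 stood low for the miR-128-3p seed (2.15%, the others 2.77% to 2.86%) and the miR-9-5p seed (1.92%, the others 2.36% to 2.45%). Ipsilateral replicate 4 stood high for the miR-137-3p seed (1.91%, the others 1.42% to 1.55%) and contralateral replicate 4 for the miR-9-3p seed (1.81%, the others 1.26% to 1.32%).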

How the results depend on the processing

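All values here are log2 fold changes or counts of calls, and no cause of a change was tested. Of 416 results under other settings, 385 kept their direction and their side of the threshold, as did 660 of 709 with 1 library left out. In 24 and 45 of them the direction reversed, and no reversed value was called. With the replicate block 1 member seed was called in ipsilateral against sham cortex (miR-7a-5p), miR-124-3p was at -0.091, the miR-218-5p seed at 0.023 and the miR-9 arm ratio against contralateral cortex at -0.038. The block changed no other call among the results reported. With the block and without each family's most covered peak, 1 member seed was called in ipsilateral against contralateral cortex (miR-9-5p, -0.35, adjusted p = 0.0312). Outside replicate 1, 1 known target was called against sham (Snap25, 1.37, adjusted p = 0.0297), and miR-138-5p was at 0.047, miR-153-3p at 0.34 and miR-9-3p at 0.10 against contralateral cortex. Without a filter 1 known target was called against contralateral cortex. Among miRNAs at 3 or more times the median, miR-124-3p was at -0.021 against sham, and with the library median as library size miR-153-3p was at 0.083 against contralateral cortex. With pseudocount 0.5 the miR-124 arm ratio was 0.070 in contralateral against sham and that of miR-9 -0.018 in ipsilateral against contralateral cortex.

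For the 3'UTR seeds in ipsilateral against sham cortex, all peak tags as library size gave 0.12 for miR-128-3p, 0.19 for miR-137-3p, 0.10 for miR-138-5p, 0.12 for miR-153-3p, 0.35 for miR-218-5p, 0.29 for miR-9-3p and 0.021 for miR-9-5p. TMM gave 0.048 for miR-218-5p and 0.0091 for miR-9-3p, and all exonic peaks 0.041 and 0.0099. Sites of positions 2 to 8 followed by A alone gave 0.071 for miR-218-5p and 0.25 for miR-7a-5p, and 0.060 for miR-9-5p against contralateral cortex.

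With 1 library left out, the known targets called were 0 to 1 against sham and 0 to 1 against contralateral cortex, and Snap25 ranged from 0.91 to 1.45 and from 0.67 to 1.28. Ipsilateral against sham, the range was -0.038 to 0.22 for miR-124-3p, -0.35 to 0.20 for miR-128-3p, -0.26 to 0.27 for the miR-9 arm ratio, -0.14 to 0.094 for the miR-218-5p seed, -0.16 to 0.035 for the miR-9-3p seed and -0.089 to 0.012 for miR-9-5p in CDS peaks. Ipsilateral against contralateral, it was -0.052 to 0.53 for miR-124-3p, -0.078 to 0.17 for miR-137-3p, -0.28 to 0.021 for miR-138-5p, -0.21 to 0.17 for miR-153-3p, -0.44 to 0.087 for miR-9-3p, -0.22 to 0.0043 for miR-9-5p in CDS peaks, -0.80 to 0.57 for the miR-124 arm ratio and -0.23 to 0.37 for that of miR-9. Contralateral against sham, it was -0.49 to 0.10 for miR-124-3p, -0.83 to 0.54 for the miR-124 arm ratio and -0.42 to 0.14 for that of miR-9. Ipsilateral replicate 5, with 3851 miRNA tags, limits what could be seen for miRNAs in the floor range.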
